A study of Mus musculus with 6 samples.

Results

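Ephrins and Eph receptors were examined in the heart muscle of NS-DADm mice and of wild type (WT) mice, as 10 genes among 17891 named genes listed in the deposited tables. The members were 5 ligands (Efna1, Efna5, Efnb1, Efnb2 and Efnb3) and 5 receptors (Epha2, Epha4, Ephb2, Ephb3 and Ephb4), taken by gene symbol, and a gene not listed in a sample counted as 0 there. They were chosen by the measured difference of Efnb3 between the genotypes, so the values of Efnb3 in this comparison are a description and carry no test. The other members came in as relatives of Efnb3, with results of these data already known.

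RNA of the myocardium was sequenced in 3 NS-DADm samples and 3 WT samples, all from mice of 6 weeks on a C57BL/6 background. In NS-DADm mice the nuclear receptor corepressors NCOR and SMRT both bear mutated DADs, by a knock-in present in the whole body. The DAD, or deacetylase activating domain, is the part of these proteins that binds and switches on the histone deacetylase HDAC3. Whether the 3 samples of a group are 3 mice is not stated in the labels, so every error and p-value here reflects the spread between samples, which may be technical. Total expected counts, the authors' estimates of reads per gene, were 12262523 to 12758311 in NS-DADm and 10183792 to 11205221 in WT, so every NS-DADm library was deeper. All 10 cardiomyocyte markers looked for were tested, and their summed level was 59924 to 67293 FPKM in NS-DADm and 60491 to 68345 FPKM in WT. FPKM, as deposited, is the count scaled to transcript length and to the mapped fragments of the library. Atrial transcripts differed widely between libraries of both groups, with summed levels of 8 marker genes from 598 to 6681 FPKM in NS-DADm and from 293 to 4779 FPKM in WT.

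Ephrins are ligands that stay attached to the cell that makes them, and Eph receptors are receptor tyrosine kinases on a neighbouring cell, so the signal passes only where cells touch. A-type ephrins are held by a lipid anchor. B-type ephrins cross the membrane and also signal back into their own cell through a short cytoplasmic tail. In the heart and its vessels the system is best known for Efnb2, which marks arterial endothelium, and its receptor Ephb4, which marks venous endothelium, and for the guidance of vessels and nerves. Efnb3 is known mainly from the nervous system, where it stops growing axons at the midline of the spinal cord.

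Efnb3 was the most abundant member in WT myocardium and was lower in NS-DADm myocardium. Its level was 18.21, 20.50 and 16.11 FPKM in NS-DADm 1, 2 and 3, against 38.57, 41.37 and 42.18 FPKM in WT 1, 2 and 3. The highest NS-DADm sample was thus below the lowest WT sample by a margin wider than the range within either group. The means were 18.3 ± 2.2 FPKM in NS-DADm and 40.7 ± 1.9 FPKM in WT (SD, n = 3 each), and the counts behind them were 714, 828 and 626 in NS-DADm and 1313, 1332 and 1499 in WT. On the log2 scale of the count fit the difference, NS-DADm over WT, was -1.13 (SE 0.09), a 2.19-fold lower level, and its size exceeded that of 98.6% of the 13130 tested genes. In RNA from whole tissue, fewer cells that express a gene and less RNA in each of them cannot be told apart.

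**Figure D1:**
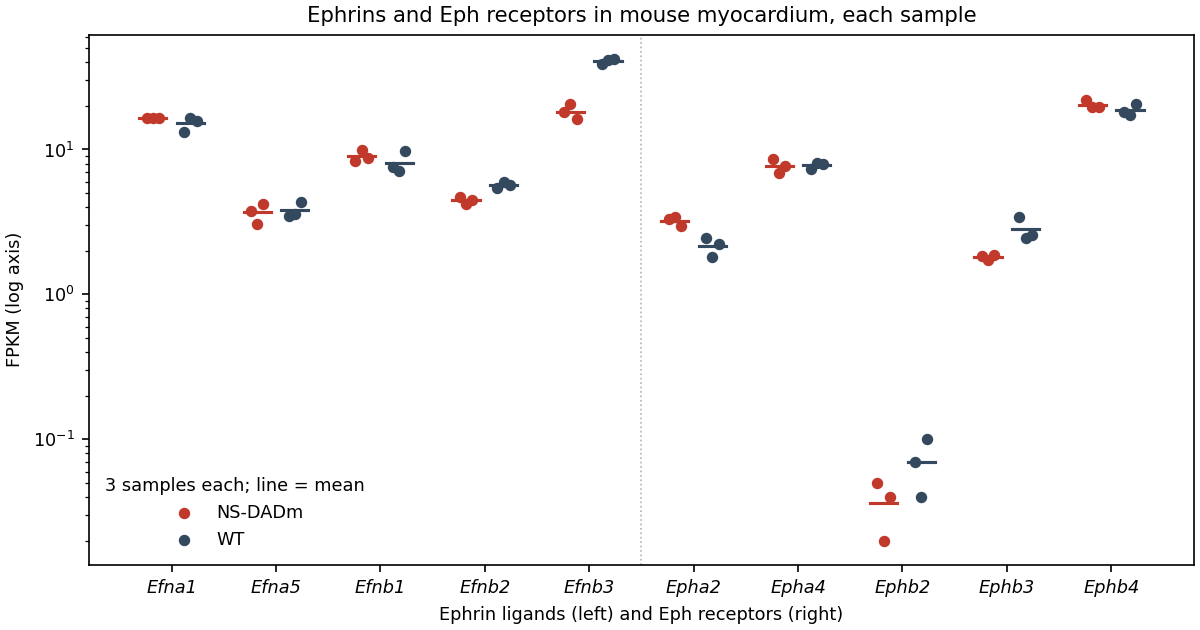
FPKM of each member in each sample on a log axis, NS-DADm (red) left of WT (dark grey-blue), with ligands left and receptors right of the dotted line; points are samples and short lines are group means. Efnb3 at 16.11 to 20.50 FPKM in NS-DADm lies clear of 38.57 to 42.18 FPKM in WT, and Ephb2 is near the bottom in both groups.

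Atrial transcripts, which varied within both groups, were set beside Efnb3 sample by sample. The atrial score, the mean log2(FPKM + 1) of Myl4, Myl7, Sln, Bmp10, Stard10 and Dkk3, was 7.23, 4.12 and 7.76 in NS-DADm 1, 2 and 3 and 3.80, 2.60 and 7.43 in WT 1, 2 and 3. NS-DADm 1 and 3 and WT 3 therefore had high scores, and NS-DADm 2 and WT 1 and 2 low ones. Efnb3 averaged 17.2 FPKM in the 2 NS-DADm samples with high scores and stood at 42.2 FPKM in the WT sample with a high score. Among low scores it was 20.5 FPKM in the 1 NS-DADm sample and averaged 40.0 FPKM in the 2 WT samples. With the score as a covariate the log2 difference was -1.09 (SE 0.09). As Efnb3 was chosen for its difference and 1 sample stands alone on each side, these values are a description.

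**Figure D2:**
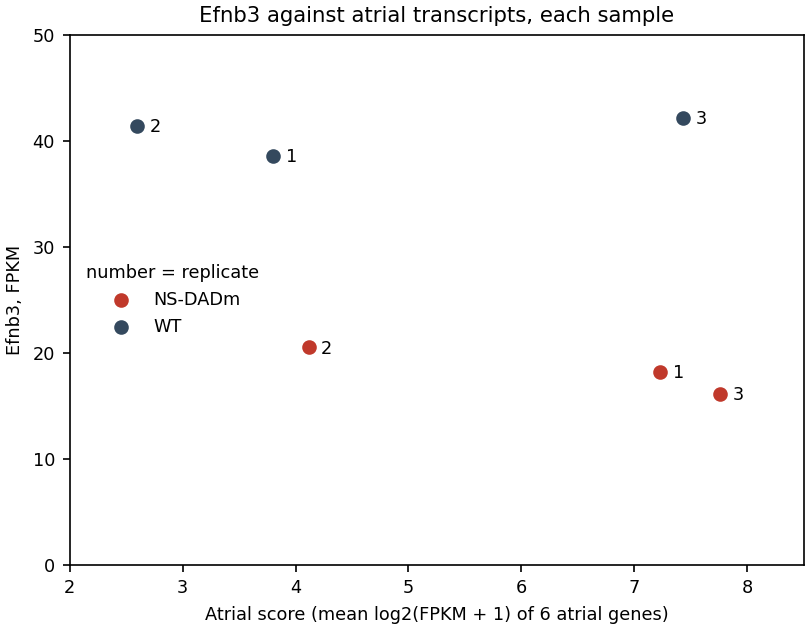
Efnb3 in FPKM against the atrial score of each sample, NS-DADm in red and WT in dark grey-blue, numbered by replicate. NS-DADm samples stand at 16.11 to 20.50 FPKM and WT samples at 38.57 to 42.18 FPKM, with 1 WT sample among the high scores and 1 NS-DADm sample among the low ones.

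Since Efnb3 is best known from neurons, 15 neuronal and glial markers were read beside it. Their summed level was 9.90 to 15.6 FPKM in NS-DADm and 13.6 to 15.4 FPKM in WT, below that of Efnb3 alone in every sample. Snap25, a protein of synaptic vesicle release, was not listed in NS-DADm 2 and in WT 1 and 2, so that it counts as 0 there, and neither was Th, the first enzyme of noradrenaline synthesis, in NS-DADm 2 and in all 3 WT samples. Of 7 tested markers 1 passed, Dbh, in the lower direction, while 3.20% of all tested genes were called. Dbh, the enzyme that makes noradrenaline, had 0.51, 0.14 and 0.48 FPKM in NS-DADm against 0.92, 1.47 and 1.53 FPKM in WT (log2 fold change -1.77, SE 0.41, adjusted p = 0.047, edgeR). Dbh lost that call without any 1 sample (adjusted p = 0.0721 to 0.174) and with limma on log2(FPKM + 0.1) (0.0725), and was not tested under a minimum mean FPKM of 1. The part of nerve cells in the Efnb3 difference was not tested.

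The 3 B-type ephrins are alike at the end of the coding sequence, which encodes the last part of the cytoplasmic tail. It is shown here because it is more alike between the 3 genes than their coding sequences as a whole. The last 99 coding bases, stop codon included, are given on the coding strand from GENCODE M21 transcripts (GRCm38), with capitals for bases identical in all 3 genes.
Efnb3, chr11:69555860-69555958, minus strand: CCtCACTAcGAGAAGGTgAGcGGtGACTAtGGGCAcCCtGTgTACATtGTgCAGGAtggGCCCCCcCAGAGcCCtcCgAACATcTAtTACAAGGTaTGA
Efnb1, chrX:99147429-99147527, plus strand: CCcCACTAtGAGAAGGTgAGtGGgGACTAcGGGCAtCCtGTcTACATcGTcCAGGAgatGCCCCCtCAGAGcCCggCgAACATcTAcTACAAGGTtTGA
Efnb2, chr8:8620588-8620686, minus strand: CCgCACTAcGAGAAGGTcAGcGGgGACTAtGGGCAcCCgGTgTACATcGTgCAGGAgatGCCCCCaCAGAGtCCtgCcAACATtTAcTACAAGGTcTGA
Of the 99 bases, 77 are the same in all 3, and Efnb3 matches Efnb1 at 82.8% and Efnb2 at 84.8% of them. Over the aligned coding sequences the identity was lower, at 59.7% with Efnb1 and 60.1% with Efnb2. Despite this likeness, 0 of the 3134 stretches of 50 bases in the main Efnb3 transcript occurred in a transcript of any other gene of that annotation. The same count was 0 for each of Efna1, Efna5, Efnb1, Efnb2, Epha2, Epha4 and Ephb4, and 0.258% for Ephb2 and 0.193% for Ephb3. In the RefSeq gene table of GRCm38.p6, no gene overlaps Efnb3.

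The other B-type ephrins did not share the size of the Efnb3 difference. Efnb2, the arterial ligand, had 4.71, 4.22 and 4.48 FPKM in NS-DADm against 5.42, 5.98 and 5.67 FPKM in WT. The groups did not overlap and the log2 fold change was -0.33 (SE 0.08), which did not pass (adjusted p = 0.0685, edgeR). Efnb1, known from the lateral membrane of cardiomyocytes, had 8.27, 9.97 and 8.76 FPKM in NS-DADm against 7.56, 7.07 and 9.69 FPKM in WT. These groups overlapped through WT 3, and the log2 fold change was 0.17 (SE 0.12). Added together, Efnb1 and Efnb2 stood at 13.5 ± 0.64 FPKM in NS-DADm and 13.8 ± 1.4 FPKM in WT (SD, n = 3 each). Efnb3 made up 57.5% ± 2.3 of the summed B-type ephrin FPKM in NS-DADm and 74.7% ± 1.4 in WT (SD, n = 3 each).

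The A-type ephrins were at close levels in both groups. Efna1, a ligand first found in endothelium and bound by Epha2, had 16.54, 16.47 and 16.58 FPKM in NS-DADm against 13.25, 16.59 and 15.60 FPKM in WT. The NS-DADm samples were nearly equal and lay inside the WT range, and the log2 fold change was 0.15 (SE 0.10). Efna5, known for sorting axons in the visual map, had 3.78, 3.06 and 4.22 FPKM in NS-DADm against 3.49, 3.60 and 4.37 FPKM in WT (log2 fold change -0.03, SE 0.12). All 5 ligands together summed to 51.9 ± 2.1 FPKM in NS-DADm and 73.5 ± 4.7 FPKM in WT (SD, n = 3 each), and Efnb3 held 35.1% ± 2.9 and 55.4% ± 1.1 of that sum in NS-DADm and in WT.

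Among the receptors, Epha2 had higher and Ephb3 lower values in every NS-DADm sample, short of the threshold. Epha2, the main receptor of Efna1, had 3.31, 3.43 and 2.96 FPKM in NS-DADm against 2.44, 1.82 and 2.22 FPKM in WT. The groups did not overlap, the log2 fold change was 0.60 (SE 0.14), and the adjusted p of 0.0508 in edgeR's test was just past the limit of 0.05. Ephb3, a B-type receptor that binds B-type ephrins, had 1.83, 1.72 and 1.87 FPKM in NS-DADm against 3.42, 2.44 and 2.59 FPKM in WT. Its log2 fold change was -0.62 (SE 0.15, adjusted p = 0.0629, edgeR), and WT 1 was the high sample. Epha2 passed under 4 alternative settings and Ephb3 under 2, and neither passed in any fit that left out 1 sample.

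Ephb4, the venous receptor, was the most abundant receptor, and Ephb2 was almost absent. Ephb4 had 22.01, 19.71 and 19.55 FPKM in NS-DADm against 18.16, 17.23 and 20.64 FPKM in WT (log2 fold change 0.15, SE 0.08). Epha4, which accepts A-type ephrins as well as Efnb2 and Efnb3, had 8.59, 6.84 and 7.69 FPKM in NS-DADm against 7.29, 8.13 and 7.96 FPKM in WT, with overlapping groups and a log2 fold change of 0.01 (SE 0.09). Ephb2 had 7, 3 and 5 counts in NS-DADm and 8, 4 and 12 in WT, at most 0.10 FPKM in a sample, and was too low to be tested. The 5 receptors summed to 33.2 ± 2.3 FPKM in NS-DADm and 31.5 ± 1.9 FPKM in WT (SD, n = 3 each).

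Of the 10 members, 9 had counts high enough to be tested, and 1 of them, Efnb3, was called at an adjusted p under 0.05. Over all tested genes 3.20% were called, 1.79% higher and 1.41% lower, and since Efnb3 was chosen for its difference, nothing follows from the count. Of the 8 members not called, 5 had a positive and 3 a negative fold change, and the median log2 fold change of the 9 was 0.01, beside -0.003 for all tested genes. FPKM did not overlap between the groups for 4 of the 9 (Efnb2, Efnb3, Epha2 and Ephb3), and for 23.4% of all tested genes. An unadjusted p under 0.05 in edgeR's test was reached by the same 4 members and by 18.1% of all tested genes. The coefficient of variation between samples of a group, among the 9, ran from 0.34% for Efna1 to 16% for Efna5 in NS-DADm, and from 4.7% for Efnb3 to 19% for Ephb3 in WT.

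**Figure D3:**
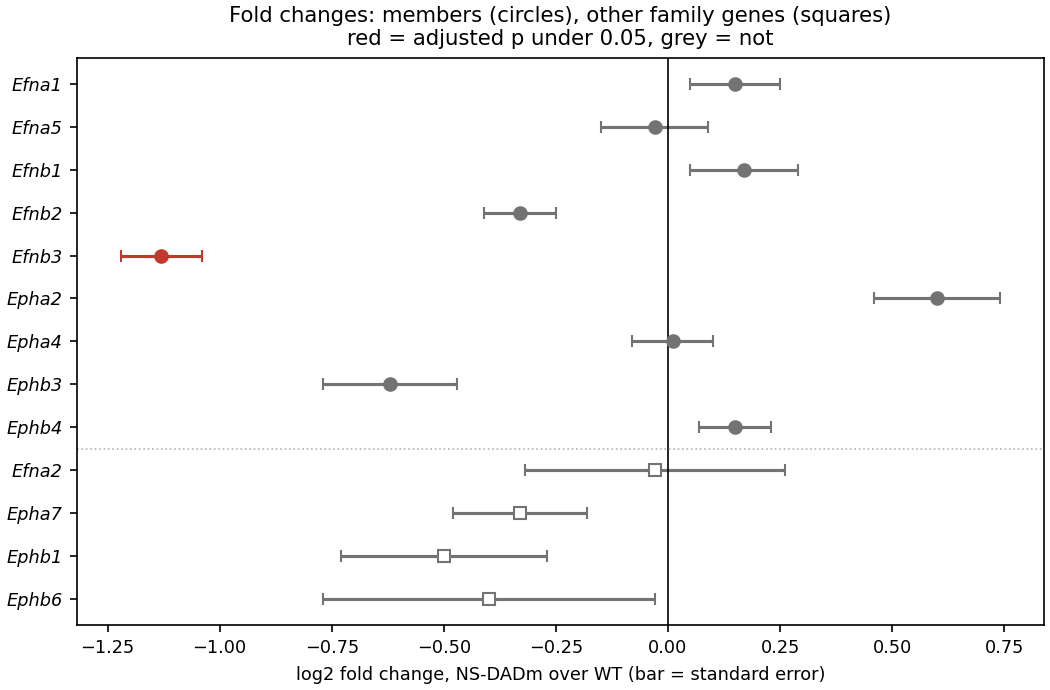
Log2 fold change of NS-DADm over WT from the edgeR fit on counts, with standard errors, for the 9 tested members (circles) and the 4 other tested genes of the families (squares); red marks an adjusted p under 0.05. Efnb3 at -1.13 is the only red point, Ephb3 and Epha2 lie at -0.62 and 0.60, and the 4 other genes lie between -0.50 and -0.03.

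The order of levels per length differed between the groups at its top. In NS-DADm the order was Ephb4 (20.4 FPKM), Efnb3 (18.3), Efna1 (16.5), Efnb1 (9.00), Epha4 (7.71), Efnb2 (4.47), Efna5 (3.69), Epha2 (3.23), Ephb3 (1.81) and Ephb2. There, sample ranges overlapped between Ephb4 and Efnb3, Efnb3 and Efna1, Efnb1 and Epha4, Efnb2 and Efna5, and Efna5 and Epha2. Within samples, Efnb2 was above Efna5 in each NS-DADm sample, and the other overlapping pairs changed order between samples. In WT the order was Efnb3 (40.7 FPKM), Ephb4 (18.7), Efna1 (15.1), Efnb1 (8.11), Epha4 (7.79), Efnb2 (5.69), Efna5 (3.82), Ephb3 (2.82), Epha2 (2.16) and Ephb2. There, ranges overlapped between Efnb1 and Epha4 and between Ephb3 and Epha2, while Efnb3 stood clear of Ephb4. Ephb3 was above Epha2 in each WT sample, and Efnb1 and Epha4 changed order between samples.

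Of 12 further genes of the families, 11 were listed and 4 were tested, and 0 of the 4 were called or had an unadjusted p under 0.05 in edgeR's test. Epha7 had 1.10, 0.95 and 1.14 FPKM in NS-DADm against 1.24, 1.30 and 1.63 FPKM in WT (log2 fold change -0.33, SE 0.15). Ephb1 had 0.93, 0.71 and 0.67 FPKM in NS-DADm against 1.35, 1.15 and 0.83 FPKM in WT (-0.50, SE 0.23), with groups that overlapped. Efna2 and Ephb6 had log2 fold changes of -0.03 (SE 0.29) and -0.40 (SE 0.37). The remaining listed genes, Efna3, Efna4, Epha1, Epha3, Epha5, Epha6 and Epha8, had at most 12 counts in a sample, and Epha10 was listed in no sample.

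Transcript models gave a second view of Ephb4. All 13 listed transcript models of the members matched a GENCODE transcript by RefSeq identifier, 7 members having 1 listed model and Efna5, Ephb2 and Ephb4 having 2. The Ephb4 models differ by 27 coding bases at the start of exon 7, where NM_001159571 uses an earlier splice acceptor than NM_010144, and the 27 bases keep the reading frame. The segment lies at chr5:137362363-137362389 on the plus strand (GRCm38) and is printed because its share differed between the groups. Capitals mark it, with 30 bases of coding sequence on each side.
Ephb4, NM_001159571: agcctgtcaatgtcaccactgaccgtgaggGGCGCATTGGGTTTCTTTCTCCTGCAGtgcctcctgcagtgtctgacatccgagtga
Ephb4, NM_010144: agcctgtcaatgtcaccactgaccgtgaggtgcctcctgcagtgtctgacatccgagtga
The model with the segment took 15.2%, 15.0% and 18.9% of the Ephb4 counts in NS-DADm 1, 2 and 3, against 9.1%, 5.5% and 9.5% in WT 1, 2 and 3. Every NS-DADm sample was above every WT sample, and the means were 16.4% ± 2.2 in NS-DADm and 8.02% ± 2.2 in WT (SD, n = 3 each). The 95% Wilson intervals of the samples spanned 13% to 21.4% in NS-DADm and 4.1% to 11.5% in WT. They rest on estimated counts and take all Ephb4 counts of a sample, 1165 in NS-DADm 1, as reads that tell the models apart. Only reads that touch this short segment, or that span the junction without it, do so. The intervals are therefore too narrow for the counting error of the share. In FPKM the longer model stood at 3.33, 2.94 and 3.67 in NS-DADm against 1.64, 0.95 and 1.94 in WT. The shorter model stood at 18.68, 16.77 and 15.88 FPKM in NS-DADm against 16.53, 16.28 and 18.70 FPKM in WT.

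**Figure D4:**
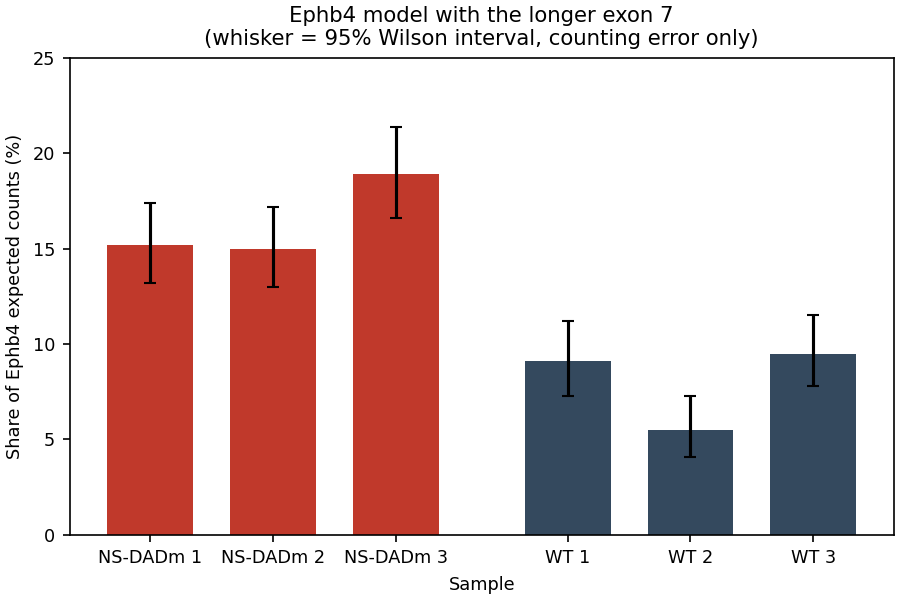
Share of the Ephb4 expected counts assigned to the transcript model with the longer exon 7, in percent, for each NS-DADm sample (red, left) and WT sample (dark grey-blue, right), with 95% Wilson intervals. The intervals take every Ephb4 count as informative and are too narrow. The NS-DADm samples stand at 15.0% to 18.9% and the WT samples at 5.5% to 9.5%.

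The Ephb4 shift was larger than that of most genes compared, but not among the extremes. Among 3092 genes with at least 2 listed models and a mean count of at least 100, the share of the leading model did not overlap between the groups in 10.8%, and 75.0% had a smaller shift than the -8.34 percentage points of Ephb4. In the fit over 17498 transcripts, where 0.0972% were called, 0 of the 11 tested models of the members passed. An unadjusted p under 0.05 in edgeR's test was reached by 5 of the 11, and by 1960 of the 17498 transcripts. Efnb3, chosen for its difference, was among the 5. The longer Ephb4 model had a log2 fold change of 1.16 (SE 0.28, adjusted p = 0.231) and the shorter one 0.02 (SE 0.09). Efnb3, with 1 model and the same counts as in the gene fit, had -1.13 (SE 0.11) here and was not called either, 17 transcripts being called in all.

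The Efna5 models differ by exon 4, an exon of 81 coding bases at chr17:62613316-62613396 on the minus strand (GRCm38), which NM_207654 holds and NM_010109 lacks. It is shown as an example of a share that did not follow the groups, with the exon in capitals and 30 coding bases on each side.
Efna5, NM_207654: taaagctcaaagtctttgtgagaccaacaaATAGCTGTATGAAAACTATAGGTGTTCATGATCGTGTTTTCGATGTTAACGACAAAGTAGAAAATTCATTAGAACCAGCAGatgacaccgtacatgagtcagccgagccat
Efna5, NM_010109: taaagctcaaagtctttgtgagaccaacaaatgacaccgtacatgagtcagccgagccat
The model without the exon took 14.6%, 0% and 0% of the Efna5 counts in NS-DADm 1, 2 and 3 and 0%, 17.8% and 50.2% in WT 1, 2 and 3. WT 3 alone held most of it, and the groups overlapped.

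Among known partners of ephrin signalling, 2 genes passed, while 3.20% of all tested genes were called. Of 29 tested effectors of the receptors (forward signalling) 0 were called by edgeR, DESeq2 or limma, with 5 at an unadjusted p under 0.05 in edgeR. Rhoa and Rac1, small GTPases that shape the actin skeleton, had log2 fold changes of -0.01 (SE 0.06) and 0.06 (SE 0.05). Of 16 tested partners of the ephrin tails (reverse signalling) 1 rose, Stat3, a transcription factor that binds phosphorylated B-type ephrin in cultured cells, at 39.3 ± 0.92 FPKM in NS-DADm and 33.4 ± 0.16 FPKM in WT (log2 fold change 0.26, SE 0.05, adjusted p = 0.0331). Stat3 lost that call without any 1 sample (adjusted p = 0.0568 to 0.125) and with limma (0.0643 and 0.0653). Of 14 tested proteases that shed ephrins or Eph receptors or cut them in the membrane 1 rose, the gelatinase Mmp9, at 3.23 ± 0.17 FPKM in NS-DADm and 0.370 ± 0.23 FPKM in WT (log2 fold change 3.15, SE 0.29). The median log2 fold changes of the 3 lists were -0.01, 0.14 and 0.07. An unadjusted p under 0.05 in edgeR's test was reached by 7 of the 16 tail partners and 3 of the 14 proteases, beside 18.1% of all tested genes. Summed levels of the tail partners were 258 to 261 FPKM in NS-DADm and 234 to 246 FPKM in WT, without overlap. Those of the proteases were 249 to 262 FPKM in NS-DADm and 239 to 248 FPKM in WT. The protease sums came closest in NS-DADm 3 (249 FPKM) and WT 2 (248 FPKM). That gap was smaller than the difference of Mmp9 alone between these samples, at 3.05 and 0.22 FPKM. Summed levels of the receptor effectors overlapped, at 669 to 693 FPKM in NS-DADm and 678 to 690 FPKM in WT. Grip2 and Pdzrn3, which encode PDZ domain proteins, were called in place of Stat3 without WT 3, and Rhbdf2 beside Mmp9 without NS-DADm 3.

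Other families of axon guidance held 3 called genes of 38 tested, beside 3.20% of all tested genes, with a median log2 fold change of 0.04. An unadjusted p under 0.05 in edgeR's test was reached by 12 of the 38, and by 18.1% of all tested genes. Sema3f, a secreted semaphorin that repels axons and vessels through neuropilin, rose to 7.66 ± 0.51 FPKM in NS-DADm, against 4.62 ± 0.61 FPKM in WT (log2 fold change 0.75, SE 0.11, adjusted p = 0.00602, edgeR), and passed without each sample in turn. Plxnb1, a plexin receptor of semaphorins, had 6.22 ± 0.40 FPKM in NS-DADm and 8.04 ± 0.11 FPKM in WT (log2 fold change -0.35, SE 0.08, adjusted p = 0.0389). Sema6d, a membrane-bound semaphorin, had 6.02 ± 0.84 FPKM in NS-DADm and 8.20 ± 0.26 FPKM in WT (log2 fold change -0.41, SE 0.09, adjusted p = 0.04). Without WT 3 the 3 called genes were Nrp1, Robo2 and Sema3f, without NS-DADm 1 or WT 2 Sema3f alone was called, and Rgma was called lower by DESeq2. Plxnb1 lost its call in every fit without 1 sample but that without NS-DADm 2 (adjusted p = 0.0547 to 0.159), with the atrial covariate and with limma (0.0636 to 0.0739), and Sema6d in every one but that without NS-DADm 3 (0.0741 to 0.124) and with limma (0.0889).

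Macrophage markers were higher in NS-DADm, while most markers of the cell types that carry these ligands and receptors did not pass. Of 11 macrophage markers 6 rose (median log2 fold change 0.45), while 3.20% of all tested genes were called. All 11 had an unadjusted p under 0.05 in edgeR's test, as did 18.1% of all tested genes. The number called was 2 without WT 2, 3 without NS-DADm 1, 4 without NS-DADm 2 or WT 1, 5 without NS-DADm 3 and 6 without WT 3. The summed level of the 11 was 416 to 473 FPKM in NS-DADm and 320 to 352 FPKM in WT. C1qa and C1qc, subunits of the first complement component, had log2 fold changes of 0.50 (SE 0.07) and 0.60 (SE 0.08) and kept their calls without each sample in turn. C1qb and Folr2 had 0.53 (SE 0.08) and 0.73 (SE 0.13); leaving out WT 2 ended the call of C1qb (adjusted p = 0.0568), and leaving out NS-DADm 1 or WT 2 that of Folr2 (0.0681 to 0.0927). Csf1r, the receptor of a macrophage growth factor, lost its call without NS-DADm 1, NS-DADm 2, WT 1 or WT 2 (adjusted p = 0.0556 to 0.0961). The part of macrophages in the values of the members was not tested.

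Endothelial lists were close to level. Of 16 arterial genes 0 were called by edgeR without a covariate or replicate block, by DESeq2 or by limma. Gja5 was called lower by edgeR with the atrial covariate, and Dll4 lower with the replicate block. In the edgeR fit by group alone 1 was at an unadjusted p under 0.05, beside 18.1% of all tested genes. The median log2 fold change was 0.09. Acvrl1, a receptor of the BMP pathway, and the transcription factor Sox7 had 0.08 (SE 0.12) and 0.22 (SE 0.14). Of 12 pan-endothelial markers 0 were called by edgeR on all 6 samples without the replicate block, by DESeq2 or by limma. Eng was called higher by edgeR without WT 3 and with the replicate block. In the edgeR fit by group alone 2 were at an unadjusted p under 0.05, beside the same 18.1%, with a median of 0.03. Eng and Pecam1 had log2 fold changes of 0.28 (SE 0.14) and 0.19 (SE 0.10), and the summed level of the 12 was 389 to 406 FPKM in NS-DADm and 351 to 417 FPKM in WT. Of 9 venous and lymphatic genes 1 rose (median -0.01), while 3.20% of all tested genes were called. The gene that rose was the hyaluronan receptor Lyve1, which macrophages also express and which is counted among the macrophage markers too. Lyve1 had 24.1 ± 1.6 FPKM in NS-DADm and 16.0 ± 3.3 FPKM in WT (SD, n = 3 each). It lost its call in every fit without 1 sample but that without WT 3 (adjusted p = 0.0627 to 0.12) and with limma (0.0628 and 0.064). Of the 9 venous and lymphatic genes, 3 were at an unadjusted p under 0.05 in the edgeR fit by group alone, beside the same 18.1%. Aplnr was called lower by DESeq2, and Vwf higher by edgeR with the replicate block.

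Of 11 pericyte and smooth muscle markers, cells in which Efnb2 is also known, 0 were called by edgeR on all 6 samples without the replicate block. Rgs5 was called lower by DESeq2, and Rgs5 and Abcc9 lower by edgeR with the replicate block. In the edgeR fit by group alone 6 were at an unadjusted p under 0.05, beside 18.1% of all tested genes. The median log2 fold change was -0.04. Rgs5 and Abcc9, both typical of pericytes, had -0.33 (SE 0.09) and -0.24 (SE 0.09), and edgeR called both lower without NS-DADm 2 and Rgs5 lower without WT 3. The summed level of the list was 318 to 359 FPKM in NS-DADm and 391 to 413 FPKM in WT, without overlap. Efnb2 did not overlap either, and neither did 23.4% of all tested genes. The part of these cells in the Efnb2 values was not tested. Of 10 fibroblast markers 0 were called by edgeR without a covariate or replicate block, and 1 by DESeq2 (Col1a1, higher). By edgeR, Lum was called lower with the atrial covariate. With the replicate block edgeR called Col1a1 higher and Lum lower. In the edgeR fit by group alone 4 were at an unadjusted p under 0.05, beside the same 18.1%. The median was 0.04, and Dcn and Dpt had 0.06 (SE 0.09) and 0.02 (SE 0.10). Of 10 cardiomyocyte markers 0 were called by edgeR without the replicate block. Ryr2 was called lower by DESeq2, and by edgeR with the replicate block. In the edgeR fit by group alone 2 were at an unadjusted p under 0.05, beside the same 18.1%, with a median of -0.02. Myl2 and Actc1 had log2 fold changes of -0.06 (SE 0.12) and 0.18 (SE 0.08). Of 8 atrial and 5 haemoglobin-related genes 0 were called by edgeR on all 6 samples without the replicate block, or by DESeq2. With the replicate block edgeR called Myl4 and Nppa higher and all 5 haemoglobin-related genes lower. In the edgeR fit by group alone 0 and 5 were at an unadjusted p under 0.05, beside the same 18.1%, with medians of 0.95 and -0.50. The atrial genes Nppa and Myl4 had log2 fold changes of 1.05 (SE 0.90) and 1.12 (SE 1.15), and the globin genes Hba-a1 and Hbb-bs had -0.52 (SE 0.19) and -0.51 (SE 0.18). Leaving out 1 library moved both medians. The atrial median was 3.62 without WT 3, 0.31 without NS-DADm 3, 0.42 without WT 2, 0.47 without WT 1 and 1.47 without NS-DADm 2. The haemoglobin median was -0.30 without NS-DADm 2 and -0.78 without NS-DADm 1, where 4 of the 5 genes were called lower (Alas2, Hba-a1, Hba-a2 and Hbb-bs).

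Genes next to Efnb3 in the RefSeq gene order did not share its difference. Wrap53 and Trp53, which follow it, had log2 fold changes of -0.18 (SE 0.19) and -0.17 (SE 0.11). On the other side, the histone demethylase gene Kdm6b had 9.00 ± 0.58 FPKM in NS-DADm and 7.15 ± 0.76 FPKM in WT (log2 fold change 0.36, SE 0.09, adjusted p = 0.0705, edgeR), and Dnah2, at 0.0433 FPKM in NS-DADm and 0.0267 FPKM in WT, was too low to be tested.

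By Pearson's r of log2(FPKM + 1) over the 6 samples, the tested genes most like Efnb3 were Trmt2b (0.9974), Paqr9 (0.9966), Slc4a7 (0.9958), Shroom4 (0.9955) and Naa35 (0.9955), all lower in each NS-DADm sample than in any WT sample. Since the groups stand apart, such values mostly reflect the gap between them. Their own fold changes were smaller than that of Efnb3, with log2 values of -0.13, -0.38, -0.34, -0.30 and -0.34 in that order. After subtracting each group's mean, the most like were Dync1li1 (0.9960), Hspa13 (0.9927), Actn2 (0.9909), Ispd (0.9902) and Thbd (0.9901), and 0 genes were in both sets. These are the highest values picked from all eligible genes over only 6 samples. Values this high can arise by chance at the top of such a search, and none was tested.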

How the data were processed

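RNA sequencing tables of 6 myocardium samples were used, 3 NS-DADm and 3 WT. Per the labels' protocols, RNA was taken with Trizol from frozen tissue and libraries were made by BGI's standard protocols. Expected counts (estimated read counts) and FPKM per gene and per transcript are the authors' deposited values, per the file headers. HISAT is named, without a version, in the submitters' processing notes. The estimator, build, annotation release and strand setting were not given in the sources read here. The lowest listed FPKM was 0.01, and 1 row without a symbol, at most 0.00032% of counts, was left out.

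Expected counts were rounded, filtered with filterByExpr, scaled by TMM and tested by edgeR's quasi-likelihood method (version 4.0.16, R 4.3.3), NS-DADm over WT, with Benjamini-Hochberg adjustment over all tested genes and a threshold of 0.05. Standard errors were derived from the log2 fold change and the F value. Transcripts were fitted the same way. Fits were checked on simulated data. Alternatives were RLE scaling in edgeR (the kind of size factor DESeq2 uses), the Wald test of DESeq2 1.42.0, and other low-count filters. Further ones were limma 3.58.1 on log2(FPKM + 1) and log2(FPKM + 0.1), a replicate block, an atrial score as covariate and leaving out each sample.

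The members and lists were chosen with earlier results of these data known. Genes were named by a rule: all members and family genes, up to 4 called genes of each list or else its 2 most abundant, the neighbours of Efnb3, and the 5 genes most like it. Promoter and protein sequences were not used here. At the depth of these libraries 3 counts on a 1 kb transcript are 0.235 to 0.295 FPKM, which limits Ephb2 and most other family genes. The Wilson intervals take all Ephb4 counts as informative, so they understate the counting error of the shares and leave out other errors.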

Additional observations from a re-analysis of the deposited data

How the results depend on the processing

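The log2 fold change of Efnb3, the gene the members were chosen by, lay between -1.23 and -1.04 under the 14 alternatives. Efna1, Efnb1, Efnb2 and Ephb4 kept their direction and were called under none of them. The number of genes called was 420, and 272 and 267 with limma on log2(FPKM + 1) and log2(FPKM + 0.1), 895 with the replicate block, and 117 to 382 when 1 sample was left out, fewest without WT 2. It was 149 without WT 1, 181 without NS-DADm 1 and 273 without NS-DADm 2. The number of members called was 1, and 1 to 1 when 1 sample was left out. It was 2 with RLE scaling in edgeR, 2 with DESeq2's test, 3 without a low-count filter and 3 with the replicate block. Epha2 was the further member called in these 4 fits (adjusted p = 0.0497, 0.0499, 0.0348 and 0.0298), with Ephb3 in the last 2 (0.0487 and 0.0295). Adjusted p ran from 0.0298 to 0.186 for Epha2 and from 0.0295 to 0.189 for Ephb3 over all alternatives. Efna5 turned to 0.08 without NS-DADm 2 and to 0.07 without WT 3 (range -0.13 to 0.08 when 1 sample was left out). Epha4 turned to -0.02 with limma on either scale, to -0.03 with the atrial covariate, to -0.08 without NS-DADm 1 and to -0.04 without WT 1 (range -0.08 to 0.07); the cause was not tested. The number of member transcripts called stayed at 0 in all 9 alternatives.

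Deviations from the group means correlated between samples of the same number at 0.001, 0.357 and 0.418 for numbers 1, 2 and 3. NS-DADm 2 and 3 each correlated best with the WT sample of their own number, and NS-DADm 1 with WT 3 (0.067). These values do not settle whether the numbers pair the samples, and the main fit did not pair them. Among the other lists, the replicate block called all 5 haemoglobin genes lower, Myl4 and Nppa higher, Dll4 lower, Eng and Vwf higher, Abcc9 and Rgs5 lower, Col1a1 higher, Lum and Ryr2 lower, and 8 macrophage markers higher. Depth limits Ephb2 and the low family genes, and the 27-base difference limits the Ephb4 shares.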
